A study of Mus musculus with 6 samples.

Results

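In thioglycollate-elicited mouse peritoneal macrophages, 4941 weak PPARγ regions lay on a binding site of PU.1 or C/EBPβ. They come from the longer macrophage PPARγ list of 18470 regions. Each is on an autosome, and none overlaps the final macrophage PPARγ list, a masked interval of input bias or the combined adipocyte PPARγ list by even 1 bp. Each does overlap a macrophage PU.1 or C/EBPβ region. The regions were thus chosen by the strength of the PPARγ call, by the factor calls and by the adipocyte PPARγ calls, and the values of these are given as a description. The rule did not use acetylation of histone H3 lysine 9 (H3K9Ace), which was tested.

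The study mapped protein occupancy on chromatin by ChIP-seq, in which an antibody pulls down crosslinked chromatin and its DNA is sequenced. The macrophages came from male C57BL/6 mice, were washed from the peritoneum 3 days after 1 ml of 3% thioglycollate and were collected after 24 h of adherence; they were profiled for PPARγ, PU.1, C/EBPβ and H3K9Ace. Cells of at least 4 animals were pooled for each run, and 2 runs were joined for PPARγ. Fat cells were obtained by differentiating 3T3-L1, a line of mouse preadipocytes, and were profiled for PPARγ and H3K9Ace. The animals' age is not given in the sources used here. Each of the 6 groups is 1 library, so every interval and test runs over regions, treats them as independent, covers counting error only and compares lists, not replicated cell populations. Libraries were assigned by title and antibody, because the description field names PPARγ for all 6. The number of reads is not in the lists, so the depth is unknown; a fold or peak height is the authors' own value for a region.

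PPARγ is a ligand-activated nuclear receptor that binds DNA with RXR. It drives fat cell differentiation, and in macrophages it controls genes of lipid uptake and storage. PU.1 is an ETS-family factor that establishes myeloid enhancers, and C/EBPβ is a leucine-zipper factor that works beside it in macrophages and that also acts early in fat cell differentiation. H3K9Ace marks active promoters and enhancers.

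The longer list has 18128 autosomal regions. Of these, 1924 overlapped the final list, a further 84 a masked interval and a further 925 the combined adipocyte list. Of the 15195 weak regions left, 4941 had a macrophage factor, 32.5% (95% Wilson interval 31.8 to 33.3), and 10254 had neither. Over all 18128 autosomal regions of the longer list, strong ones included, 38.6% overlapped a factor; since the rule used this overlap, nothing is read from the contrast. None of the 4941 regions overlapped the shorter final adipocyte PPARγ list either.

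Most regions carried PU.1, whose list is the longer one, with 46356 regions against 24421 for C/EBPβ. Both factors lay at 2307 of the 4941 (46.7%, 45.3 to 48.1), PU.1 alone at 1719 (34.8%) and C/EBPβ alone at 915 (18.5%). Few members overlapped several regions of the same factor, and the widths left little room for more than 1. The median width was 268 bp for members, 239 bp for PU.1 regions and 274 bp for C/EBPβ regions. A member with PU.1 overlapped 1 PU.1 region in 3867 cases and several in 159, and a member with C/EBPβ overlapped 1 C/EBPβ region in 3153 cases and several in 69. For comparison, both factors were found at 59.3% of the 1063 final-list PPARγ regions that have a factor and no adipocyte PPARγ. They were found at 18.4% of the 47528 merged PU.1 or C/EBPβ sites that overlap no region of either macrophage PPARγ list, of the masked intervals or of the combined adipocyte list. PU.1 alone lay at 26.6% of those final-list regions and at 62.3% of those sites without PPARγ. These shares follow from the lists that define the sets and were not tested.

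The peak heights were low and narrow in range. The authors' peak height, in whole units with no stated scaling, had a median of 7 at the members, with quartiles of 7 and 8 and extremes of 5 and 24. It was 7 at 2251 members (45.6%) and 8 at 1175 (23.8%). Heights of 11 or more were found at 131. Final-list regions with a factor had a median height of 13 and a lowest height of 9. The members' fold over the authors' control had a median of 4.09, with a range of 2.55 to 6.27, and their width a median of 268 bp. Weak regions without a factor had the same median height of 7, a median fold of 4.14 and a median width of 188 bp. Weak regions with a factor were thus wider at the median. The quartiles of their height were also higher, 7 and 8 with a factor and 6 and 7 without one. The greatest single height was not: it was 24 with a factor and 67 without one.

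A member could miss the final list by fold, by false discovery rate or by both. The final list holds regions of fold 5 or more at the lowest rate, 0.24%. At 532 members the rate was 0.24% but the fold was under 5; their median height was 9 and their median width 364 bp. At 245 members the fold was 5 or more but the rate was higher; these were narrow, with a median width of 166 bp, and none was taller than 9. The other 4164 (84.3%) missed both limits. A rate above 5% was given for 1839 of the members (37.2%) and for 5920 of the weak regions without a factor (57.7%).

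The taller a weak region was, the more often it had a factor. Of the weak regions of height 5 to 6, 18.6% had PU.1 or C/EBPβ. The share was 30.5% at height 7, 46.0% at 8, 64.8% at 9 to 10 and 70.4% at 11 or more. Within the members the pattern continued: both factors lay at 39.0% of those of height 5 to 6 and at 69.5% of those of height 11 or more. The last height class holds 131 members and 55 regions without a factor, and width was not held constant. These values come from the calls that chose the members.

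**Figure D1:**
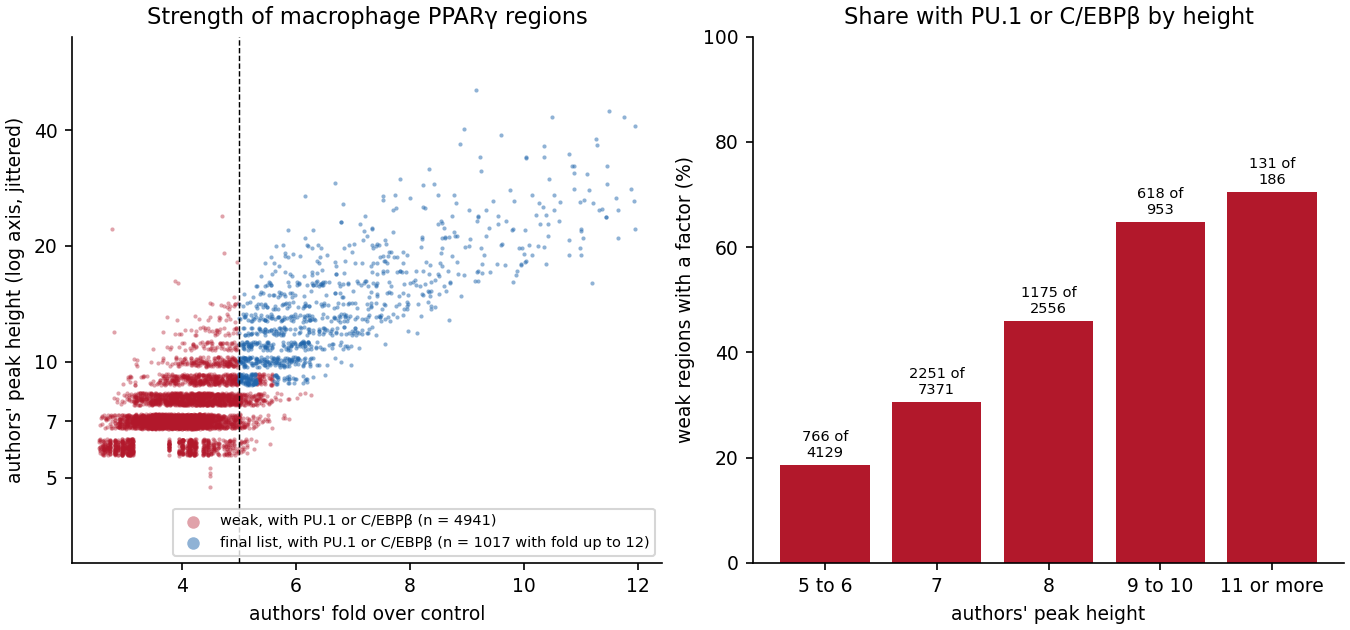
Left, the authors' fold over control (x axis) and peak height (y axis, log scale, jittered) of each weak PPARγ region with a factor (red) and of each final-list region with a factor (blue, shown up to a fold of 12); the dashed line marks the fold of 5 that the final list requires. Right, the share of weak regions that overlap PU.1 or C/EBPβ at each peak height, which was 18.6% at a height of 5 to 6 and 70.4% at 11 or more.

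The PPARγ centre lay close to that of the factor. At members with both factors the median distance between centres was 83 bp to PU.1 and 79 bp to C/EBPβ. At members with PU.1 alone it was 96 bp to PU.1, and at members with C/EBPβ alone 96.5 bp to C/EBPβ. A centre within 100 bp was found for PU.1 at 57.5% and for C/EBPβ at 59.5% of the members with both, and for the one factor present at 51.4% of the members with PU.1 alone and 51.0% of those with C/EBPβ alone. Neither factor was clearly the nearer one: among the 2307 members with both, the C/EBPβ centre was nearer at 1197 (51.9%), the PU.1 centre at 1101 (47.7%), and 9 were equal. The final-list regions with both factors had nearly the same split, 51.9% and 47.8%. Overlap was required, so short distances were fixed by the rule and are not evidence of a shared position.

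**Figure D2:**
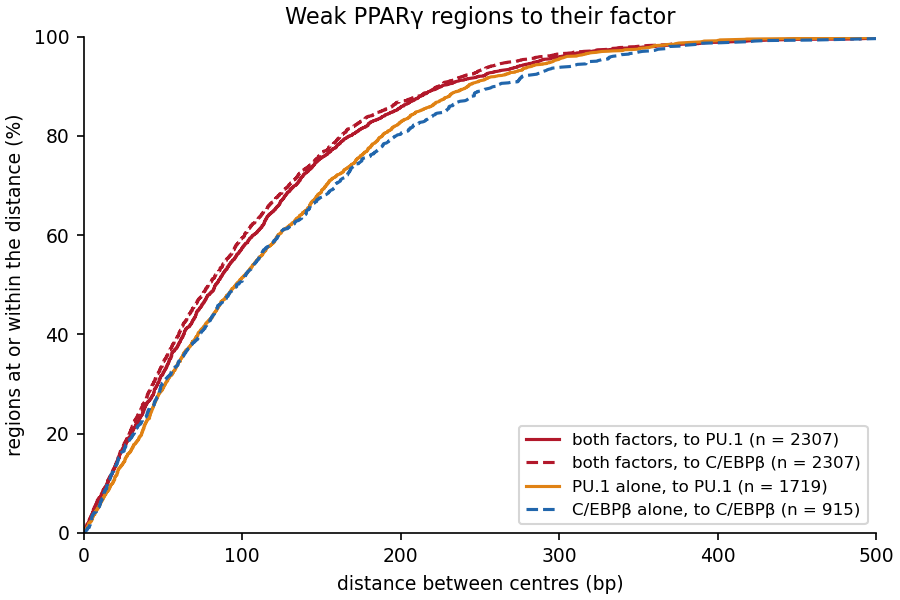
Cumulative share of weak PPARγ regions (y axis, %) whose factor centre lies at or within a distance of the PPARγ centre (x axis, bp), for members with both factors (red), PU.1 alone (orange) and C/EBPβ alone (blue); solid lines are distances to PU.1 and dashed lines distances to C/EBPβ. The medians lie between 79 and 96.5 bp.

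Acetylation, which the rule did not use, shows whether such weak sites sit in active chromatin, and of which cell type. Macrophage H3K9Ace lay at 3018 of the 4941 members, 61.1% (59.7 to 62.4), where 41.3% of all autosomal regions of the longer list had it. Adipocyte H3K9Ace lay at 1533 members, 31.0% (29.8 to 32.3), near the 29.7% of the longer list. Sorted by cell type, 1726 members were acetylated in macrophages alone (34.9%, against 19.1% of the longer list), 1292 in both cell types (26.1%), 241 in adipocytes alone (4.88%, against 7.61%) and 1682 in neither (34.0%). A further measure was taken among regions acetylated in exactly 1 cell type: the share for which that cell type was the macrophage. It was 87.7% at the members, 1726 of 1967. The lists differ in extent, with 53.1 Mb acetylated in macrophages and 100.1 Mb in adipocytes, so the shares of a set in the 2 cell types are not compared by a test; each measure is compared between sets of regions instead.

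Weak regions with a factor were acetylated in macrophages far more often than weak regions without one. Macrophage H3K9Ace lay at 61.1% of the members and at 26.8% of the 10254 regions without a factor, an odds ratio of 4.28 (3.98 to 4.61) with an adjusted p below double precision by Fisher's exact test, 2-sided, with Benjamini-Hochberg adjustment over the 9 tests of region sets. For adipocyte H3K9Ace the shares were 31.0% at the members and 23.5% at the regions without a factor, an odds ratio of 1.47 (1.36 to 1.58, adjusted p = 1.19e-22, Fisher's exact test). Among regions acetylated in 1 cell type, that cell type was the macrophage at 87.7% of the members and at 59.0% of the regions without a factor, an odds ratio of 4.98 (4.22 to 5.88, adjusted p = 2.55e-94, Fisher's exact test). The adipocyte difference was not past the threshold in every range of width and height. Whether the ratios differ between these ranges was not tested. In regions no wider than the longer list's median of 213 bp, adipocyte H3K9Ace lay at 30.4% of the members and 19.7% of the regions without a factor, an odds ratio of 1.78 (adjusted p = 6.43e-19, Fisher's exact test). In wider regions that ratio was 1.01 (adjusted p = 0.814, Fisher's exact test), and above the median height of 7 it was 1.13 (adjusted p = 0.0996, Fisher's exact test). The macrophage ratio was 4.17 in the narrower and 3.04 in the wider regions.

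Against the final-list regions with a factor, the weak regions showed no detectable difference in macrophage acetylation. It lay at 61.1% of the members and at 59.8% of the 1063 final-list regions, an odds ratio of 1.05 (0.918 to 1.21, adjusted p = 0.467, Fisher's exact test). Adipocyte H3K9Ace, by contrast, was more frequent at the weak regions, with 31.0% of the members and 20.6% of the final-list regions and an odds ratio of 1.73 (1.47 to 2.04, adjusted p = 5.92e-12, Fisher's exact test). Both sets leave out regions of the combined adipocyte PPARγ list. With the shorter final adipocyte list left out in its place, the shares were 35.0% of 5374 weak and 30.8% of 1346 final-list regions, an odds ratio of 1.21 (adjusted p = 0.00491, Fisher's exact test). Of regions acetylated in 1 cell type, the macrophage accounted for 87.7% at the members and 92.6% at the final-list regions, an odds ratio of 0.569 (0.384 to 0.825, adjusted p = 0.00201, Fisher's exact test). Among members taller than the longer list's median height of 7, macrophage acetylation reached 65.6% and the odds ratio over the final-list regions passed the threshold, at 1.28 (adjusted p = 0.00293, Fisher's exact test). The lower macrophage share among singly acetylated regions was not past the threshold for those taller members, at 0.753 (adjusted p = 0.191, Fisher's exact test), nor in the upper 50% of regions by fold, at 0.658, nor in regions no wider than 213 bp, at 0.816.

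The last comparison was with PU.1 or C/EBPβ sites where no PPARγ region of either macrophage list was found. Macrophage H3K9Ace lay at 61.1% of the members and at 38.0% of the 47528 sites without PPARγ, an odds ratio of 2.56 (2.41 to 2.72, adjusted p = 6.37e-212, Fisher's exact test). Over all 56217 autosomal factor sites, with and without PPARγ, 41.7% had macrophage and 30.2% adipocyte H3K9Ace, 18.6% in macrophages alone and 7.16% in adipocytes alone. The adipocyte shares were 31.0% at the members and 27.4% at the sites without PPARγ, an odds ratio of 1.19 (1.12 to 1.27, adjusted p = 1.17e-07, Fisher's exact test). For regions acetylated in 1 cell type the macrophage share was 87.7% at the members and 72.3% at the sites without PPARγ, an odds ratio of 2.74 (2.38 to 3.17, adjusted p = 2.1e-53, Fisher's exact test). The adipocyte difference was not past the threshold in the upper 50% of regions by fold, with an odds ratio of 1.01 (adjusted p = 0.902, Fisher's exact test), or in regions wider than 213 bp, with 1.06 (adjusted p = 0.166, Fisher's exact test).

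**Figure D3:**
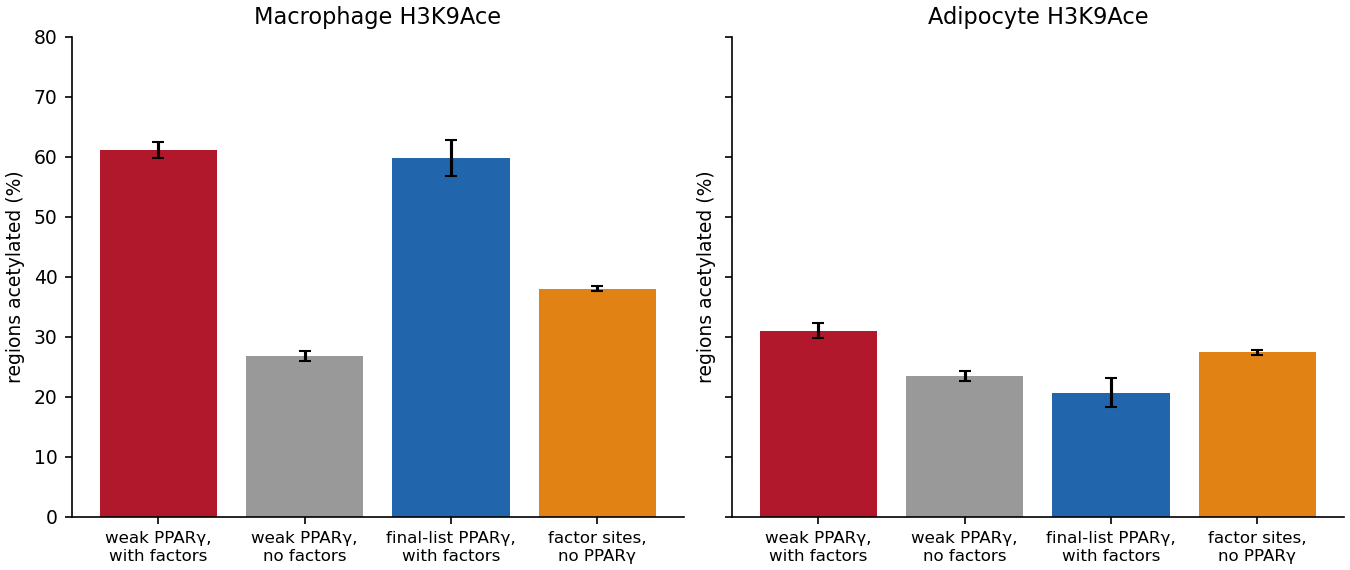
Share of regions (y axis, %) that overlap macrophage H3K9Ace (left) and adipocyte H3K9Ace (right) in weak PPARγ regions with factors, weak PPARγ regions without factors, final-list PPARγ regions with factors and factor sites without PPARγ; error bars are 95% Wilson intervals over regions. In macrophages the members, at 61.1%, and the final-list regions, at 59.8%, both stand above the other sets, at 26.8% and 38.0%.

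The mix of factors differs between these sets, so the comparisons were repeated within each factor class, a step added after seeing the data. With both factors, macrophage H3K9Ace lay at 66.5% of the members and 51.9% of the sites without PPARγ, an odds ratio of 1.84 (1.67 to 2.03, adjusted p = 3.31e-36, Fisher's exact test). With PU.1 alone the shares were 54.2% at the members and 32.8% at the sites without PPARγ, an odds ratio of 2.42 (2.20 to 2.68, adjusted p = 3.46e-69, Fisher's exact test). With C/EBPβ alone they were 60.4% at the members and 41.7% at the sites without PPARγ, an odds ratio of 2.14 (1.86 to 2.46, adjusted p = 1.04e-26, Fisher's exact test). Macrophage acetylation was thus more frequent at the weak PPARγ regions in each class. Adipocyte acetylation was higher at the members with PU.1 alone, with 31.8% of them and 24.9% of the sites without PPARγ (odds ratio 1.40, 1.26 to 1.56, adjusted p = 9.83e-10, Fisher's exact test). It showed no detectable difference with both factors, at 28.0% of the members and 27.9% of the sites without PPARγ (odds ratio 1.00, 0.904 to 1.11). With C/EBPβ alone it lay at 37.4% of the members and 35.0% of the sites without PPARγ (odds ratio 1.11, 0.962 to 1.28). Members with both factors had a median width of 297 bp, and the merged sites with both factors and no PPARγ one of 365 bp.

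Against final-list regions of the same class, macrophage H3K9Ace lay at 54.2% of the members and 47.3% of the final-list regions with PU.1 alone (odds ratio 1.31, 1.01 to 1.70, adjusted p = 0.0383, Fisher's exact test). With C/EBPβ alone it lay at 60.4% of the members and 52.7% of the 150 final-list regions (odds ratio 1.37, 0.955 to 1.97, adjusted p = 0.0830, Fisher's exact test). With both factors the shares were 66.5% at the members and 67.1% at the final-list regions (odds ratio 0.971, 0.801 to 1.18). Whether these ratios differ between the classes was not tested. Adipocyte H3K9Ace was more frequent at the weak regions in all 3 classes. The widest gap in odds was with C/EBPβ alone, 37.4% of the members and 20.7% of the 150 final-list regions (odds ratio 2.29, 1.49 to 3.60, adjusted p = 6.81e-05, Fisher's exact test). The odds ratio was 1.51 with both factors and 1.77 with PU.1 alone. Both sets leave out regions of the combined adipocyte PPARγ list, so the rule bears on these adipocyte ratios. Over all classes the ratio was 1.73 with that list and 1.21 with the shorter final adipocyte list. The single classes were not run with the shorter list.

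The members also differed among themselves by factor. Macrophage H3K9Ace was most frequent with both factors, at 1534 of 2307 (66.5%, 64.5 to 68.4). It lay at 553 of 915 members with C/EBPβ alone (60.4%, 57.2 to 63.6) and at 931 of 1719 with PU.1 alone (54.2%, 51.8 to 56.5). By Fisher's exact tests adjusted over 9 class comparisons, the odds ratio was 1.68 for both factors over PU.1 alone (1.47 to 1.91, adjusted p = 2.07e-14). For both factors over C/EBPβ alone it was 1.30 (1.11 to 1.53, adjusted p = 0.00223, Fisher's exact test). For PU.1 alone over C/EBPβ alone it was 0.773 (0.655 to 0.913, adjusted p = 0.00297, Fisher's exact test). The first of these held in each of the alternatives run. The odds ratio of both factors over C/EBPβ alone was 0.897 when factor centres had to lie within 100 bp, and that of PU.1 over C/EBPβ alone was 0.950 when acetylation was counted from centres within 1000 bp, neither past the threshold. The first of this pair was also not past it, at 1.19 to 1.31, in 3 settings of width or height, and the second, at 0.746 to 0.886, in 3 settings of fold, width or height.

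Adipocyte H3K9Ace had another order, with members of C/EBPβ alone highest. It lay at 342 of 915 of them (37.4%, 34.3 to 40.6), at 546 of 1719 with PU.1 alone (31.8%, 29.6 to 34.0) and at 645 of 2307 with both (28.0%, 26.2 to 29.8). Both factors over C/EBPβ alone gave an odds ratio of 0.650 (0.551 to 0.767, adjusted p = 1.02e-06, Fisher's exact test), which stayed below 1 and past the threshold in every alternative run. Both over PU.1 alone gave 0.834 (0.726 to 0.958, adjusted p = 0.0110, Fisher's exact test), and PU.1 alone over C/EBPβ alone gave 0.780 (0.657 to 0.926, adjusted p = 0.00548, Fisher's exact test). The first of these 2 turned to 1.01 in the upper 50% of regions by fold and was not past the threshold in 4 other settings, at 0.854 to 0.957. The second was not past it in 4 settings, at 0.740 to 0.853.

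Where a member was acetylated in 1 cell type, this was the macrophage at 988 of 1087 regions with both factors (90.9%), at 473 of 561 with PU.1 alone (84.3%) and at 265 of 319 with C/EBPβ alone (83.1%). The odds ratio was 1.86 for both over PU.1 alone (1.35 to 2.55, adjusted p = 0.000323, Fisher's exact test) and 2.03 for both over C/EBPβ alone (1.39 to 2.95, adjusted p = 0.000458, Fisher's exact test). PU.1 alone and C/EBPβ alone showed no detectable difference, at 1.10 (0.740 to 1.61, adjusted p = 0.635, Fisher's exact test). Neither ratio was past the threshold with factor centres within 100 bp, where it was 1.35 over PU.1 alone and 1.28 over C/EBPβ alone, or in regions no wider than 213 bp, where it was 0.966 over PU.1 alone and 1.86 over C/EBPβ alone. The ratio over PU.1 alone was also not past it in the upper 50% of regions by fold, at 1.23, or above the median height, at 1.65. Members with both factors are wider, with a median of 297 bp against 239 bp with PU.1 alone and 261 bp with C/EBPβ alone.

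**Figure D4:**
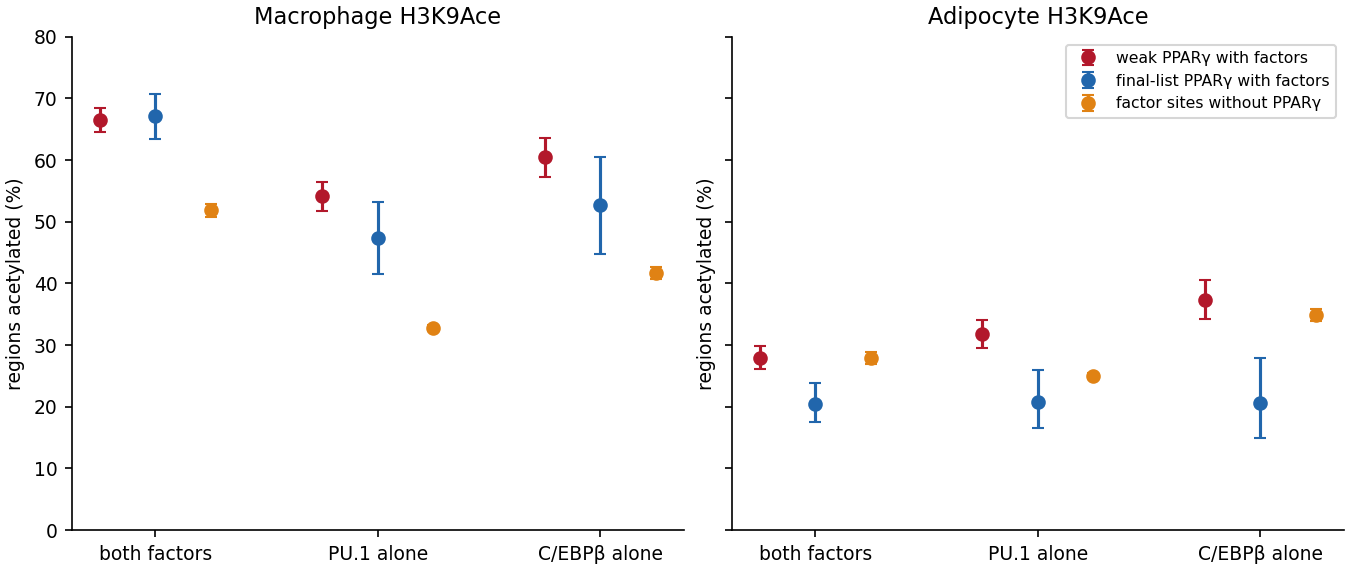
Share of regions (y axis, %) with macrophage H3K9Ace (left) and adipocyte H3K9Ace (right) by factor class (x axis), for weak PPARγ regions with factors (red), final-list PPARγ regions with factors (blue) and factor sites without PPARγ (orange); error bars are 95% Wilson intervals over regions. In macrophages the red points, 66.5%, 54.2% and 60.4% from left to right, lie above the orange ones in each class.

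Within the members, macrophage acetylation went with peak height. It lay at 54.2% of the members of height 5 to 6 (50.6 to 57.7), 59.6% at height 7, 63.6% at 8, 68.6% at 9 to 10 and 69.5% at 11 or more (61.1 to 76.7). Members above the median height of 7 had it in 65.6% of cases and those at or below it in 58.2%, an odds ratio of 1.37 (1.21 to 1.54, adjusted p = 7.68e-07, Fisher's exact test over 4 tests). Adipocyte acetylation did not follow height detectably: it lay at 30.4% of the members above the median and 31.5% of the others, an odds ratio of 0.950 (0.837 to 1.08, adjusted p = 0.431, Fisher's exact test). In the weak regions without a factor, macrophage acetylation was 21.3% at height 5 to 6, 27.9% at 7, 33.2% at 8, 38.8% at 9 to 10 and 25.5% at 11 or more (14 of 55), below that of the members at each height. The macrophage odds ratio by height was 1.18 in members no wider than 213 bp (adjusted p = 0.222, Fisher's exact test), where 363 members were above the median height. Members with both factors also became more frequent with height, from 39.0% at 5 to 6 to 69.5% at 11 or more. Factor class was not held constant in the tests by height.

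Fold gave another picture than height. Macrophage H3K9Ace lay at 59.6% of the members above the median fold of 4.09 and at 62.5% of those at or below it (odds ratio 0.887, 0.790 to 0.996, adjusted p = 0.0548, Fisher's exact test). Adipocyte H3K9Ace lay at 28.3% of the members above the median fold and at 33.7% of the others (odds ratio 0.779, 0.689 to 0.880, adjusted p = 0.000111, Fisher's exact test). Width differed among members of high fold. The 245 members of fold 5 or more, all above the lowest rate of 0.24%, had a median width of 166 bp. The 532 members at the lowest rate had a median fold of 4.5 and a median width of 364 bp. The adipocyte ratio was not past the threshold in members no wider than 213 bp, at 0.846 (adjusted p = 0.222, Fisher's exact test), or with factor centres within 100 bp, at 0.847 (adjusted p = 0.0770, Fisher's exact test). The macrophage ratio turned to 1.14 in members no wider than 213 bp and to 1.05 in wider ones.

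**Figure D5:**
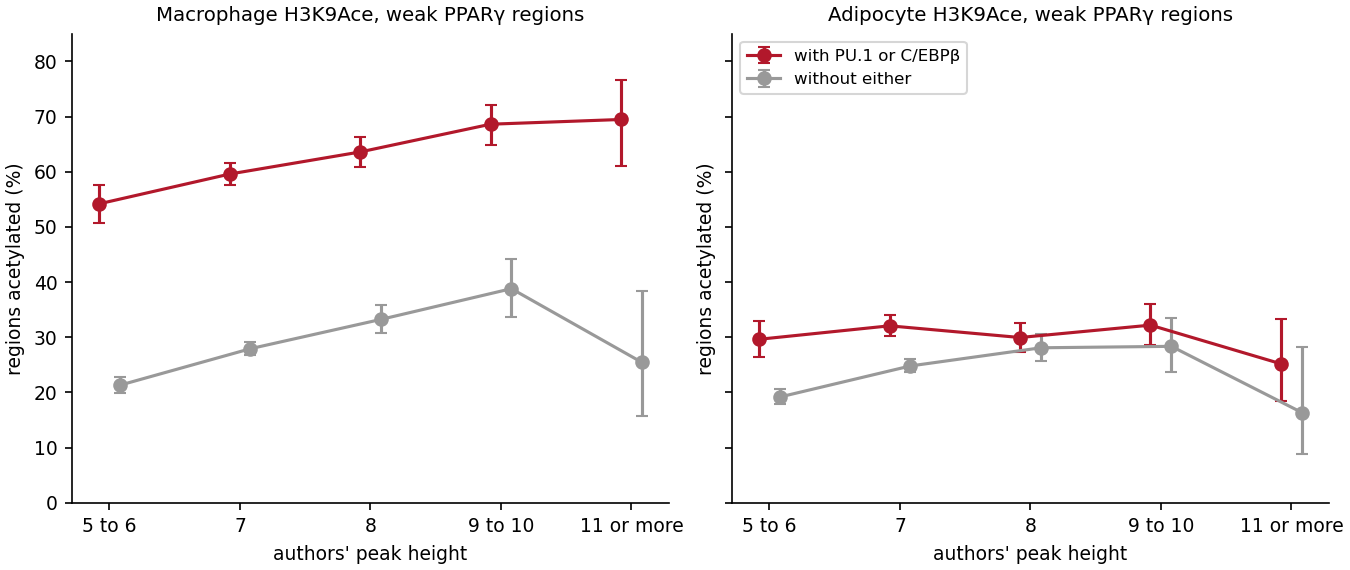
Share of weak PPARγ regions (y axis, %) with macrophage H3K9Ace (left) and adipocyte H3K9Ace (right) by peak height (x axis), for regions with PU.1 or C/EBPβ (red) and without either (grey); error bars are 95% Wilson intervals over regions. The red macrophage points go up from 54.2% at a height of 5 to 6 to 69.5% at 11 or more and stay above the grey ones.

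An even spread of centres inside the acetylated regions would put equal shares in the central and the outer 50% by length. Shares are of all overlapping regions, some of which had their centre beyond the edge. Of the 3018 members with macrophage H3K9Ace, 93.3% had their centre inside the acetylated region. It lay in the central 50% by length at 55.0% and in the outer 50% at 38.3%. The weak regions without a factor had 42.9% of their 2750 acetylated cases in the central and 47.0% in the outer 50%. For final-list regions the shares were 53.6% and 36.6%, and for factor sites without PPARγ 55.8% and 36.7%. In adipocyte H3K9Ace the members' shares were 49.8% in the central and 43.1% in the outer 50%. These positions were not tested. The members' acetylated regions had a median width of 1900 bp, against 1050 bp for all 37263 macrophage regions. The comparison sets were much the same. The median was 2125 bp for weak regions without a factor, 1750 bp for final-list regions and 1800 bp for factor sites without PPARγ. These 3018 members fell in 2652 acetylated regions, 7.12% of the macrophage list, and 300 of these held several members, at most 7. The 1923 members outside macrophage H3K9Ace were often near it, with a median gap of 3117 bp from edge to edge and 74.9% within 10 kb. For the weak regions without a factor the median gap was 6096.5 bp.

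A final-list PPARγ centre was within 10 kb of 954 members (19.3%), against 1124 of the 10254 weak regions without a factor (11.0%). Those 954 had macrophage H3K9Ace in 70.4% of cases (67.5 to 73.2) and both factors in 51.8%. The 3987 members further away had macrophage H3K9Ace in 58.8% of cases (57.3 to 60.4) and both factors in 45.5%. Adipocyte H3K9Ace was at 31.3% of the near and 31.0% of the far members. Another member lay within 10 kb of 1970 members (39.9%), so many regions share a neighbourhood and are not independent of each other. Keeping 1 region per 10 kb, which left 3855 members, changed none of the calls against the other region sets.

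The members were spread over the chromosomes much like the weak regions without a factor. Of 19 autosomes, 0% had a share past the threshold in either direction by Fisher's exact test, and none had an unadjusted p under 0.05. Chromosome 1 came closest, with 8.70% of the members and 7.82% of the regions without a factor (odds ratio 1.12, 0.992 to 1.27, adjusted p = 0.747, Fisher's exact test). Chromosome 2 held the most members, 463.

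The 13 densest neighbours lay within 71.5 kb on chromosome 11, from 83408953 to 83480418 in mm8. Of these 13 members, 10 had both factors and 3 had C/EBPβ alone, and their heights ran from 6 to 9. Macrophage H3K9Ace lay at 8 of the 13 members and adipocyte H3K9Ace at none, where 61.1% and 31.0% of all members had them. The 13 share 1 neighbourhood and are not independent of each other. The nearest final-list PPARγ centres to any of them lay 0.287 kb and 0.301 kb away. The files pair no region with a gene, and the gene table at hand is of another genome build than mm8, so no gene is named here, and no sequence is shown.

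Single members, given in mm8 coordinates, show the range of these weak regions. The tallest lay at chr9:123780291-123781119, with a height of 24, a fold of 4.71 and both factors, PU.1 centred 78 bp and C/EBPβ 22.5 bp away. It was acetylated in macrophages and not in adipocytes. A second tall member, with C/EBPβ alone, lay 4.30 kb further along the chromosome, at chr9:123785420-123785825, with a height of 16, a fold of 3.88 and the same acetylation. The other members with both factors and the greatest heights lay at chr19:11330686-11331184 (height 18), chr6:88870299-88870775 (16) and chr12:86357503-86358074 (15). Of these 3, the one on chromosome 19 had no H3K9Ace, that on chromosome 6 had it in both cell types and that on chromosome 12 in macrophages alone.

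With PU.1 alone, no member was taller than 14. Those of greatest height lay at chr2:25410478-25410945 and chr5:118727421-118727747, both of height 14, then at chr1:59420130-59420498 and chr17:70894360-70895061, both of height 13. All but the one on chromosome 1 were acetylated in both cell types. With C/EBPβ alone, the tallest lay at chr16:57312777-57313106, with a height of 22 but a fold of only 2.78. The C/EBPβ centre was 5 bp away, and the nearest macrophage H3K9Ace began 127 bp from its edge. Members at chr14:19836479-19836959 (height 19) and chr17:47787821-47788300 (14) were acetylated in macrophages alone. Among the 100 members of greatest height, 66 had both factors, 69 macrophage H3K9Ace and 27 adipocyte H3K9Ace. Over all members the shares were 46.7%, 61.1% and 31.0% in that order, and the contrast was not tested. The lowest height among the 100 was 11, which 63 members share, so only some of those were counted.

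The highest folds belonged to short regions of height 8. They lay at chr6:47677986-47678113 (fold 6.27, 127 bp), chr8:11016268-11016397 (6.17, 129 bp), chr4:53171605-53171745 (6.07, 140 bp) and chr3:90334690-90334823 (6.03, 133 bp). The first had C/EBPβ alone and no acetylation, with macrophage H3K9Ace 29437 bp away. The others were acetylated in macrophages. The widest member, 1317 bp at chr14:68226404-68227721, had both factors, a height of 8 and acetylation in both cell types.

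At the limit of the final list, the members and the listed regions lay side by side in fold. Just outside, at a fold of 4.99 and the lowest rate of 0.24%, lay the regions at chr2:117657122-117657627 (height 9), chr9:63412666-63412948 (14) and chr13:113564099-113564384 (9), all with both factors. Just inside, at a fold of 5, lay the regions at chr2:131842164-131842398 (height 9), chr3:36660501-36660772 (10) and chr5:135987297-135987597 (9), of which the second had PU.1 alone and the others both factors. The 532 members at the lowest rate had both factors in 59.6% of cases, against 59.3% of the final-list regions with a factor. Macrophage H3K9Ace lay at 71.1% (67.1 to 74.7) of these members and at 59.8% (56.9 to 62.7) of those final-list regions, a contrast that was not tested. The 4164 members that missed both limits had both factors in 45.1% of cases and macrophage H3K9Ace in 60.0% (58.5 to 61.5).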

How the data were processed

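The 6 libraries, 1 per group, were used as the authors' deposited lists of regions. Per the labels' protocols, reads of 36 bp were mapped to mm8 with ELAND, allowing 2 mismatches and keeping unique best matches. For the peak caller's settings and the control: not given in the sources used here. Per the file headers, the macrophage PPARγ lists hold a fold change (a ratio over control), a whole-number peak height (a signal) and a false discovery rate, read as percent because it exceeds 1, all as the authors made them. The longer list is output of GLITR according to its deposited name. The other deposited lists were used for positions, and 20 repeated adipocyte H3K9Ace intervals were counted once.

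Overlap meant at least 1 bp. Shares carry 95% Wilson intervals. Odds ratios carry exact conditional intervals and 2-sided Fisher's exact tests with Benjamini-Hochberg adjustment within each family of 9, 9, 4 and 19 tests, at a threshold of 0.05 (Python 3.11.15, scipy 1.17.1, numpy 2.4.6, pandas 2.3.3). The functions were tested on simulated data. Single regions were named by rule: the 4 tallest per factor class, the 4 of highest fold, 3 on each side of the fold limit, the widest, and the densest run within 100 kb. The members and lists were chosen with earlier results of these data known. Alternatives changed the overlap rule, the lists, the width and height range and the spacing of regions.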

Additional observations from a re-analysis of the deposited data

Results flagged for a closer look

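These 5 values were picked out because macrophage and adipocyte acetylation differed under the same contrast, by Fisher's exact test on the regions acetylated in exactly 1 cell type. The odds that this cell type was the macrophage were 4.98 times as high at weak PPARγ regions with factors as at those without, with shares of 87.7% and 59.0% in that order. They were 2.74 times as high as at factor sites without PPARγ, where the share was 72.3%. Against final-list PPARγ regions with factors the odds ratio was 0.569, with 87.7% of the weak and 92.6% of the final-list regions. Among the weak regions, the odds ratio was 1.86 for both factors over PU.1 alone (90.9% and 84.3%) and 2.03 for both factors over C/EBPβ alone (90.9% and 83.1%). Neither of these 2 ratios was past the threshold with factor centres within 100 bp (1.35 and 1.28 in that order) or at or under the median width (0.966 and 1.86). The ratio over PU.1 alone also missed it in the upper 50% by fold (1.23) and above the median height (1.65). The ratio against the final list missed it in the upper 50% by fold (0.658), at or under the median width (0.816), above the median height (0.753) and within each factor class (0.606 with both, 0.794 with PU.1 alone and 0.377 with C/EBPβ alone). Each cell type was measured by 1 library, so cell type and library cannot be told apart.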

How the results depend on the processing

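Of 284 values recomputed for 24 results under 17 settings, 231 kept their direction and their side of the threshold. The higher macrophage H3K9Ace of the 4941 weak regions with factors over weak regions without factors and over factor sites without PPARγ kept both in each setting that gave a value. In the rest the cause was not tested, and values are odds ratios, with "macrophage share" for the share of macrophages among regions acetylated in 1 cell type. With H3K9Ace centres within 1000 bp, macrophage H3K9Ace over the final list was 0.982 and of PU.1 alone over C/EBPβ alone 0.950, while adipocyte H3K9Ace was 0.887 for both factors over PU.1 alone, 0.824 for PU.1 alone over C/EBPβ alone and 1.04 for high over low height. With factor centres within 100 bp, 3035 members were left; macrophage H3K9Ace was 0.897 for both over C/EBPβ alone, adipocyte H3K9Ace 0.854 for both over PU.1 alone and 0.847 for high over low fold, and the macrophage share 1.35 for both over PU.1 alone, 1.28 for both over C/EBPβ alone and 0.946 for PU.1 alone over C/EBPβ alone. In the upper 50% by fold, the macrophage share was 0.658 over the final list and 1.23 for both over PU.1 alone, adipocyte H3K9Ace 1.01 over factor sites and 1.01 for both over PU.1 alone, and macrophage H3K9Ace 0.877 for PU.1 alone over C/EBPβ alone. At or under the median false discovery rate, adipocyte H3K9Ace was 0.824 for PU.1 alone over C/EBPβ alone. With the final adipocyte list, macrophage H3K9Ace was 0.971 over the final list and 0.882, now past the threshold, for high over low fold, and adipocyte H3K9Ace 1.05 for high over low height. With 1 region per 10 kb, macrophage H3K9Ace was 0.991 over the final list and 0.842, past the threshold, for high over low fold. At or under the median width, the macrophage share was 0.816 over the final list, 0.966 for both over PU.1 alone and 1.86 for both over C/EBPβ alone. Macrophage H3K9Ace was then 1.31 for both over C/EBPβ alone, 0.886 for PU.1 alone over C/EBPβ alone, 1.18 by height and 1.14 by fold, and adipocyte H3K9Ace 0.957 for both over PU.1 alone and 0.846 by fold. At or under the median height, macrophage H3K9Ace was 1.19 for both over C/EBPβ alone; the final list holds no region that low, so it gave no value. Above the median height, adipocyte H3K9Ace was 1.13 over regions without factors, 0.943 for both over PU.1 alone and 0.740 for PU.1 alone over C/EBPβ alone, macrophage H3K9Ace 1.28, past the threshold, over the final list and 0.746 for PU.1 alone over C/EBPβ alone, and the macrophage share 0.753 over the final list and 1.65 for both over PU.1 alone. Settings chosen after seeing the data were width above the median and single factor classes. Above the median width, adipocyte H3K9Ace was 1.01 over regions without factors, 1.06 over factor sites and 0.853 for PU.1 alone over C/EBPβ alone, macrophage H3K9Ace 1.21 for both over C/EBPβ alone and 1.05 by fold, and the macrophage share 0.818 for PU.1 alone over C/EBPβ alone. With both factors, macrophage H3K9Ace was 0.971 and the macrophage share 0.606 over the final list, and adipocyte H3K9Ace 1.00 over factor sites. With PU.1 alone, macrophage H3K9Ace was 1.31, past the threshold, and the macrophage share 0.794 over the final list. With C/EBPβ alone, the macrophage share was 0.377 over the final list and adipocyte H3K9Ace 1.11 over factor sites. No paired analysis was possible because each group holds 1 library, and for the same reason no replicate could be left out. Read depth is unknown, so a region missing from a list was not called there and is not shown to be unbound.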

Other observations

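The sex chromosomes were outside the regions described. On chromosome X, 24 of 188 weak PPARγ regions overlapped PU.1 or C/EBPβ, and on chromosome Y 2 of 107 did. On the autosomes 32.5% of the 15195 weak regions did. The contrast was not tested, and nothing is read from it.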
